A study of Drosophila melanogaster with 3 samples.

Results

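Of the 7201 peak summits that passed the authors' reproducibility threshold in a chromatin immunoprecipitation (ChIP-seq) study of the zinc finger protein Noc, 223 (3.10%) lay at the start site of a noncoding RNA gene and at no protein-coding start site. A summit, the highest point of a peak, was counted here when it was within 500 bp of the annotated start of a gene that encodes no protein and more than 500 bp from every protein-coding start site (Ensembl annotation of dm6, transposable elements left out). In all, 403 summits were within 500 bp of a noncoding start site, and the 180 that also had a coding start site within that distance were left out. The material was whole Drosophila melanogaster larvae, males and females pooled, of a transgenic line that stably makes Noc with GFP fused to its C terminus, precipitated with an antibody to GFP. There was 1 group of 3 biological replicates, with a labelled age of 48 days, which is long for a larva. Untagged larvae and the control alignment were not analysed here, so no summit alone shows that Noc was bound. The promoter that drives the tagged copy is not given in the sources used here. Whole larvae mix all tissues, so the cells a summit comes from are unknown.

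Noncoding genes differ in how they are transcribed. RNA polymerase II makes long noncoding RNAs (lncRNAs), antisense RNAs and the long primary transcripts from which microRNA (miRNA) hairpins are cut, while RNA polymerase III makes transfer RNAs (tRNAs) from promoter elements inside the gene. The annotated start of an miRNA or of a small nucleolar RNA (snoRNA) is the end of the hairpin or of the processed RNA, and need not be where transcription begins. Noc belongs to a small family of zinc finger proteins that act in limb, eye and tracheal development.

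The sequences 50 bp to each side of 9 member summits are printed as examples. They are the 3 strongest members, the summit at the stress lncRNA Hsromega, summits near the starts of 3 further lncRNAs that carry miRNAs, the strongest tRNA summit, and the summit at a gene of 7SK RNA. A window is centred on its summit and need not hold the start site. At lncRNA:CR43857 and lncRNA:CR43334, for example, the summits lay 123 and 221 bp upstream of it. All windows are on the strand of the noncoding gene, 5′ to 3′, from the RefSeq copy of dm6, and capitals mark matches to the 14 short words described further on, on either strand.
lncRNA:CR46036 (chr3R:17700564-17700664, plus strand): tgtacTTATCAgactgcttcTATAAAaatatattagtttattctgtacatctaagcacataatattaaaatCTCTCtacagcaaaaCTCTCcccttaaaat
lncRNA:CR31044 (chr3R:29214393-29214493, plus strand): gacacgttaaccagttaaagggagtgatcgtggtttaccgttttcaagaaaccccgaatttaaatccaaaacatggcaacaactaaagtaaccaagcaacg
asRNA:CR44429 (chrX:15298397-15298497, minus strand): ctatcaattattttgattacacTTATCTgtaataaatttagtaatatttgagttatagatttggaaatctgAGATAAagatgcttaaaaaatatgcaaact
lncRNA:Hsromega (chr3R:21296267-21296367, plus strand): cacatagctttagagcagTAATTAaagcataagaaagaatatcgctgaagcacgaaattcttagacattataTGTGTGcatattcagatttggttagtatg
lncRNA:CR43857 (chr2L:7423647-7423747, plus strand): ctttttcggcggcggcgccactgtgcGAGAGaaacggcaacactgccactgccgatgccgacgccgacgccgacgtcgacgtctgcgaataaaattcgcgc
lncRNA:CR43334 (chr3L:628164-628264, plus strand): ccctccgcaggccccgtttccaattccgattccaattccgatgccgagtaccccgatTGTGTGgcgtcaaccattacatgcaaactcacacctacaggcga
lncRNA:CR43314 (chr2L:11971002-11971102, minus strand): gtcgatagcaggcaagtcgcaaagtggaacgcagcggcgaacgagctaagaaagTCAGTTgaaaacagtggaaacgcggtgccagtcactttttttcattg
tRNA:Phe-GAA-1-3 (chr2L:8570589-8570689, plus strand): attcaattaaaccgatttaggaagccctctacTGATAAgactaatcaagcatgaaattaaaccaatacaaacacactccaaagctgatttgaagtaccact
snRNA:7SKa (chr3R:7474768-7474868, minus strand): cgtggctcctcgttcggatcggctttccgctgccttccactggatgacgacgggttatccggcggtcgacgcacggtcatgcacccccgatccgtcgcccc
Their letters differ widely: GC makes up 21.8% of the window at asRNA:CR44429, 27.7% at lncRNA:CR46036, 63.4% at lncRNA:CR43857 and 67.3% at snRNA:7SKa.

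The members were mostly lncRNA summits, and lncRNAs are also the largest class of noncoding genes. Of 3122 noncoding genes with no coding start site within 500 bp, 1683 were lncRNAs, 258 tRNAs and 321 antisense RNAs. By the class of the nearest noncoding start site, 132 of the 223 (59.2%) were at lncRNAs, 39 (17.5%) at tRNAs and 29 (13.0%) at antisense RNAs. Another 9 were at snoRNAs, 7 at miRNAs and 4 at pseudogenes. The last 3 were at snRNA:U5:63BC, a gene of the spliceosomal U5 RNA, at snRNA:7SKa, a gene of the 7SK RNA that holds back the elongation factor P-TEFb, and at Uhg4, a host gene of snoRNAs. The replicates' own lists, each taken to the same length of 7201 peaks by signal, held 234, 186 and 232 such summits in replicates 1, 2 and 3 (217 ± 27.2, SD, n = 3). The members spread over the arms with 50 on 2L, 65 on 2R, 40 on 3L, 48 on 3R, 20 on X and none of the 5 IDR summits of chromosome 4. They made up 4.61% of the summits of 2R and 1.66% of those of X.

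Signal values, the authors' own measure of unstated scale, ranged from 219 to 3291 over the members with a median of 346. Ranked among all 7201, 4 members were in the first 100, 36 in the first 1000 and 105 stood above the middle of the list. The strongest member (signal 3291, rank 41) had its summit at 3R 17700614, 127 bp upstream of lncRNA:CR46036 (FBgn0267703). It lay in an intron of osa, a chromatin remodelling gene on the opposite strand, and 13543 bp from the nearest coding start site. In the full lists of replicates 1, 2 and 3 it ranked 39, 70 and 31. The second (signal 3055, rank 52, 3R 29214443) was 119 bp upstream of lncRNA:CR31044 and ranked 42, 64 and 52. The third (signal 2457, rank 91, X 15298447) was 230 bp upstream of asRNA:CR44429, an antisense RNA whose summit fell in an intron of gce, a gene of the juvenile hormone receptor. Its nearest coding start site, that of gce, was 562 bp away, and it ranked 107, 69 and 129. All 3 were thus near the top in every library.

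**Figure D1:**
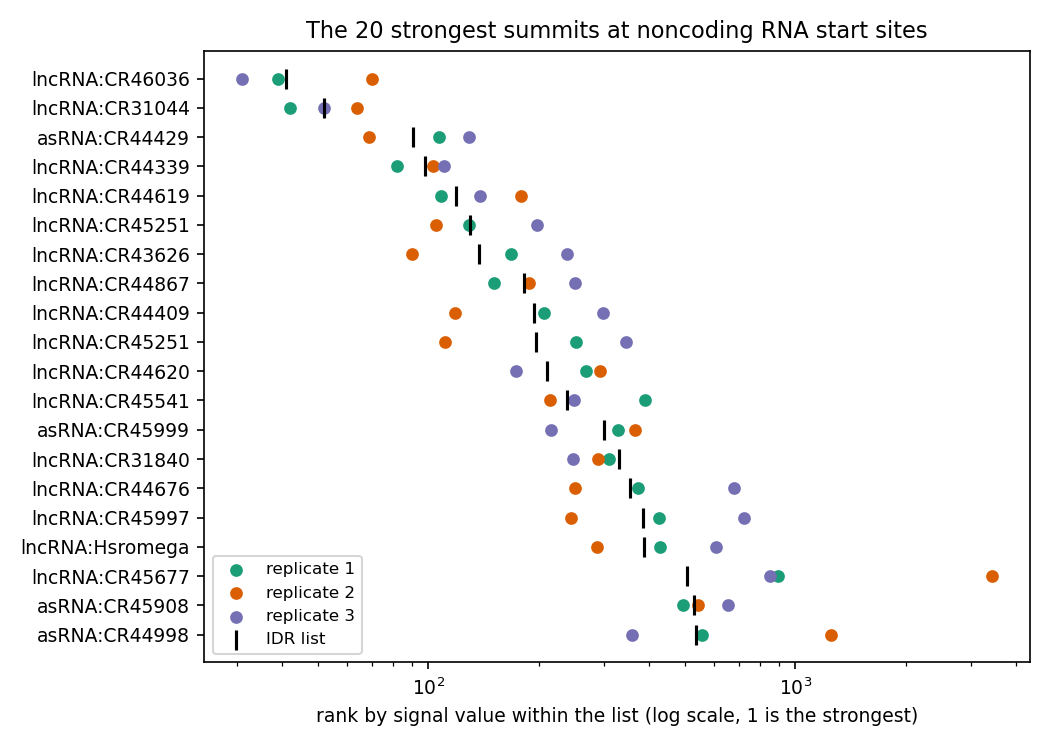
Rank by signal value of the 20 strongest summits at noncoding start sites in the full list of each replicate (coloured points) and in the IDR list (black bars), on a log axis where 1 is the strongest peak. The summit at lncRNA:CR46036 ranked between 31 and 70 in the replicates, and that at lncRNA:CR45677 fell to 3438 in replicate 2.

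Behind these came lncRNA:CR44339 (signal 2416, rank 98), 4192 bp from the start of the Polycomb group gene Psc, lncRNA:CR44619 (2232, nearest coding gene CG4004), lncRNA:CR45251 (2146 and 1826, CG6163) and lncRNA:CR43626 (2102, CG43389). Next were lncRNA:CR44867 (1897, CG13244, within beat-Ib), lncRNA:CR44409 (1852), which lay in an intron of the immune factor gene Dif, lncRNA:CR44620 (1746, CG1662) and lncRNA:CR45541 (1634), 1811 bp from the hexokinase gene Hex-A. The rest of the 20 strongest were asRNA:CR45999 (1503, CG34112), lncRNA:CR31840 (1437, hll), lncRNA:CR44676 (1396, CG9300), lncRNA:CR45997 (1324, within mbl), lncRNA:Hsromega (1321), lncRNA:CR45677 (1141, CG33969), asRNA:CR45908 (1113, within CG1943) and asRNA:CR44998 (1101, within HDAC6, a deacetylase gene). All 20 were found in the full list of every replicate.

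Most noncoding genes with a member had 1. Of 229 genes with a member within 500 bp of a start, 199 had 1, 29 had 2 and lncRNA:CR43626 had 3. The 3 at lncRNA:CR43626 had signals of 2102, 707 and 258. The 10 genes with most members also included lncRNA:CR45251, lncRNA:CR44867, lncRNA:CR44868, lncRNA:CR45541, lncRNA:CR45677, asRNA:CR44192, lncRNA:CR45355, lncRNA:CR44852 and lncRNA:CR45352, with 2 each; lncRNA:CR44867 and lncRNA:CR44868 share a summit. In all, 31 members had an interval of the same start and end as another IDR summit. Intervals that overlap only in part were not counted. No pair of IDR summits was closer than 199 bp. Of the members 17 (7.62%) had another IDR summit within 200 bp, against 5.30% of all IDR summits. Whether such close summits are separate peaks was not tested.

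Start sites of noncoding genes that carry miRNAs had summits more often than those of other lncRNAs. A host was taken as an lncRNA, antisense RNA or other noncoding gene whose span holds an annotated miRNA on the same strand. The grouping was chosen after values had been seen, so no test is given, and the hosts named from it outside the 20 strongest members were likewise chosen after their values were seen. Of 34 hosts with no coding start site within 500 bp, 11 (32.4%, Wilson 95% interval 19.1% to 49.2%) had an IDR summit at a start site. Of 1651 other lncRNAs, 113 did (6.84%, 5.72% to 8.17%). The replicates' own lists gave 38.2%, 20.6% and 26.5% of the hosts (28.4% ± 8.99, SD, n = 3) against 6.72%, 7.69% and 6.18% of the other lncRNAs (6.86% ± 0.767). The host share was thus above that of other lncRNAs in each library, with no overlap. With a replicate left out and IDR peaks kept if found in both others, the host share was 20.6% without replicate 1, 26.5% without replicate 2 and 20.6% without replicate 3, in sets that hold fewer peaks of every kind. Hosts were longer, with a median of 6465 bp against 657 bp, and had 1.47 start sites on average against 1.05. Among genes with a single start site, 7 of 22 hosts (31.8%) and 110 of 1588 other lncRNAs (6.93%) had a summit.

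Of 12 host genes that span an miRNA of a list of miRNAs known from growth and timing, counted after their values were seen, 7 had a member. Over all 37 miRNA hosts on the arms, these included, 12 had a member. The 5 listed hosts without one were those of mir-184, mir-1, mir-9a and mir-276a and lncRNA:let7C. That last gene spans mir-100, mir-125 and let-7 and had neither an IDR summit nor a pooled peak within 500 bp of its start. The second strongest member belongs here: lncRNA:CR31044 (3R 29214562 to 29219667) spans mir-279 and mir-996, a pair known from neuron specification. The gene with 3 members, lncRNA:CR43626 (3L 3249340 to 3254504), spans mir-282. Bantam (mir-ban), a growth-promoting miRNA, lies in lncRNA:CR43334 (3L 628435 to 643900), which had a summit 221 bp upstream of a start (signal 554; ranks 1803, 4427 and 1423 in replicates 1, 2 and 3) and another 10 bp downstream (signal 337). For mir-8, which acts in growth and insulin signalling, lncRNA:CR43650 had summits 111 bp upstream of a start (signal 759; ranks 1373, 1229 and 1003) and 16 bp downstream of another (signal 323). For mir-14, which acts in fat metabolism and cell survival, lncRNA:CR43651 had a summit 8 bp downstream (signal 613; ranks 1426, 7218 and 1539). For mir-275, lncRNA:CR43857 had a summit 123 bp upstream (signal 626; ranks 1660, 2467 and 918).

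The other hosts with members carried mir-277 and mir-34 (lncRNA:CR43459, signal 268), mir-bft, an miRNA of sensory bristle development (lncRNA:CR43314, 442), mir-281-1 and mir-281-2 (asRNA:CR46194, 992), mir-252 (asRNA:CR17025 and asRNA:CR46354, which share a start, 282) and mir-4951 (lncRNA:Hsromega). In all, 17 members lay at 12 of 37 hosts on the arms; the lower count of 11 of 34 leaves out genes with any start site near a coding one. Replicate 2 held the weakest rank of the 3 at the bantam, mir-14 and mir-275 hosts, and the strongest of the 3 was replicate 3 at bantam, mir-8 and mir-275 and replicate 1 at mir-14. The hairpins themselves rarely had a summit: 9 of 227 miRNA genes (3.96%; 4.41%, 3.08% and 4.41% in the replicates) had one within 500 bp of the hairpin's start.

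The 7 members nearest to an miRNA hairpin were mir-9377 (signal 920, in an intron of Tis11), mir-275 (835), mir-277 (385), mir-14 (369.7), mir-4962 (347), mir-314 (259) and mir-279 (255). The summit at mir-275 lay 436 bp upstream of the hairpin and ranked 1161, 1005 and 848 in replicates 1, 2 and 3. It fell inside the host lncRNA:CR43857, so that locus had 1 summit at the hairpin and 2 at the host's start. The summit at mir-277 ranked 3374, 8212 and 2100. Only the first 2 miRNAs were within the first 1000 IDR peaks.

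By a list of miRNAs with known roles in growth and timing, 3 of 19 annotated genes (mir-275, mir-14 and mir-279) had an IDR summit at the gene's own start, against 7.85% of all noncoding genes with no coding start site within 500 bp. A pooled peak below the IDR threshold or above it lay at 10 of them, against 24.9% of all those noncoding genes and 18.5% of miRNA genes. Among 8 annotated genes of the Hox complexes, none of which had an IDR summit, 3 had a pooled peak: mir-10 (signal 139.7), asRNA:PS4 (103) and lncRNA:iab8 (48.9). Both roX RNAs, which guide dosage compensation of the male X, were without an IDR summit and had pooled peaks of signal 122 at lncRNA:roX1 and 76.7 at lncRNA:roX2. The lowest signal in the IDR list was 218. With 2 and 8 genes, these lists are too short for a share. Hsromega (heat shock RNA omega, FBgn0001234), the nuclear RNA of omega speckles that accumulates under heat stress, had a summit at 3R 21296317, 190 bp downstream of its start, with ranks of 428, 287 and 609 in replicates 1, 2 and 3.

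The other small RNA classes gave few members. The strongest snoRNA summits were at snoRNA:Or-ACA9 (signal 936, in an intron of AdamTS-A; ranks 920, 408 and 1189 in replicates 1, 2 and 3), snoRNA:gcl-a (822, in an intron of gcl; ranks 888, 2349 and 479) and snoRNA:Psi18S-301 (532, nearest coding gene TFAM), which was not matched in replicate 2. Of the 9 snoRNA members 6 were in introns of coding genes. Uhg4, whose span holds 7 annotated snoRNAs, had a summit 78 bp upstream of its start (signal 684) that ranked 1417, 1555 and 1812, alike in the 3 libraries. The summit at snRNA:7SKa (signal 335, nearest coding gene CG1142) ranked 2650 in replicate 1 and 18473 in replicate 2 and was not matched in replicate 3. That at snRNA:U5:63BC (signal 246, nearest coding gene PAN3) ranked 6067 in replicate 1 and 7457 in replicate 3 and was not matched in replicate 2. The pseudogene members were weak, led by alpha-Est4aPsi (signal 281, nearest coding gene alpha-Est7), CR43186 (223, dup) and CR31032 (219.7, CG7824). None of these 4 pseudogene summits was found in all 3 replicates' own lists.

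Across classes, tRNA genes had a share with a summit close to that of protein-coding genes in the IDR list, with a wide spread between libraries. Of 258 tRNA genes with no coding start site within 500 bp, 63 (24.4%, Wilson 19.6% to 30.0%) had one of the IDR summits at 500 bp or less, against 24.5% of 13945 protein-coding genes (Wilson 23.8% to 25.2%). The protein-coding genes were not filtered by neighbouring start sites. A gene was counted if any of its start sites had a summit, and classes were not matched for start sites per gene. Several tRNA genes can share 1 summit, and the share was 31.2% with another tRNA gene within 1000 bp and 13.3% without. A pooled peak lay at 190 of the 258 tRNA genes (73.6%), against 24.9% of the 3122 noncoding genes of all classes. In the replicates' own lists the tRNA share was 26.4%, 12% and 35.3%, or 24.5% ± 11.7 (SD, n = 3), and the protein-coding share 25.4%, 23.3% and 24.7%. Replicate 2 was low and replicate 3 high for tRNA genes, and the difference between the classes was 0.0755 ± 11 percentage points (higher for tRNA genes in 2 of 3 libraries, exact permutation test by sign flips, two-sided, p = 1.00). In the IDR peaks that the remaining pair of replicates both held, the tRNA share was 6.20% without replicate 1, 16.3% without replicate 2 and 6.59% without replicate 3. Leaving out replicate 1 or replicate 3 thus moved it by more than 1.5 times. Such sets are smaller, with 3925, 4901 and 4266 peaks left of 7201, and the shares of all noncoding genes and of lncRNA genes were lower in them too.

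Of all 3122 noncoding genes, the tRNA genes included, 245 (7.85%) had an IDR summit at 500 bp or less, with 8.10%, 6.5% and 8.33% in replicates 1, 2 and 3. The difference from protein-coding genes was -16.8 ± 0.507 percentage points, by gene and not by start site. The noncoding share was lower in 3 of 3 libraries (exact permutation test, two-sided, p = 0.25, the smallest p that 3 libraries allow). Of lncRNAs 122 of 1683 (7.25%; 7.25%, 7.96% and 6.60%), of antisense RNAs 27 of 321 (8.41%; 8.10%, 4.98% and 8.10%) and of snoRNAs 15 of 245 (6.12%; 6.53%, 4.08% and 6.12%) had one. A small class of other RNA genes of RNA polymerase III, picked by name, held 7 genes such as snRNA:7SKa. Genes of rRNA and spliceosomal RNA were classed apart, whichever polymerase makes them. In the class of 7, a summit lay at 1 (14.3%), with 28.6%, 0% and 28.6% in the replicates, above protein-coding genes in 2 of 3 libraries. The lowest shares were those of pseudogenes, 6 of 222 (2.70%), and of rRNA genes, 0 of 99. At that count the share could still reach 3.03% if set by 3 counts, or 3.74% by the upper Wilson bound. rRNA genes and many tRNA genes are near-identical copies, so how reads were assigned to them is uncertain. The Wilson intervals and these limits cover counting error over genes only, and read depth is unknown because peak lists hold no read totals.

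**Figure D2:**
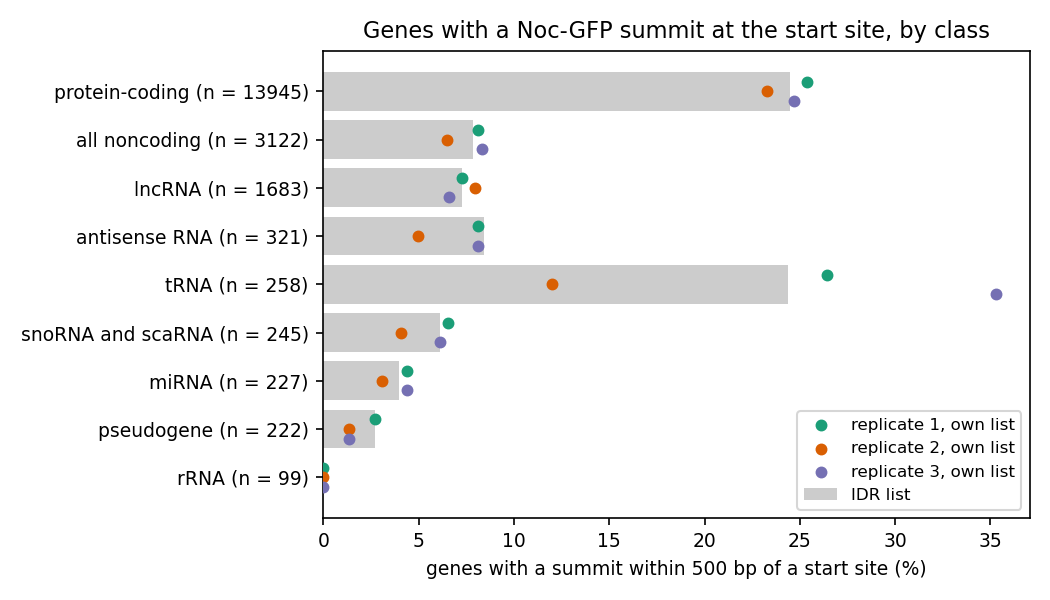
Percent of genes with a summit within 500 bp of a start site, by class (at least 90 genes), in the IDR list (grey bars) and in each replicate's own list of 7201 peaks (points). The tRNA points spread from 12% to 35.3%, while those of all noncoding genes lie between 6.5% and 8.33%, below the protein-coding ones.

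The 39 tRNA members had lower signal values and were found in fewer libraries than the lncRNA members, a difference that was not tested. Their signals ranged from 219.9 to 653 with a median of 306, against 361 for lncRNA members, and none was in the first 1000. The strongest was at tRNA:Phe-GAA-1-3, 249 bp upstream in an intron of Sema1a (2L 8570639, signal 653; ranks 1484, 2502 and 1184 in replicates 1, 2 and 3). Next were tRNA:Ile-AAT-1-8 (signal 649.8; ranks 1021, 5302 and 1567) and tRNA:Arg-CCT-1-2 (518; ranks 2809, 2643 and 1490). Matched within 100 bp to the replicates' own lists, 31, 15 and 31 of the 39 tRNA members were found in replicates 1, 2 and 3. Of the 132 lncRNA members, 115, 100 and 106 were found. Replicate 2 held the fewest of both, and 11 tRNA members (28.2%) and 76 lncRNA members (57.6%) were in all 3, against 49.7% of all IDR summits. The summit lay upstream of the tRNA gene in 29, inside it in 4 and past its 3′ end in 6.

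The tRNA genes with summits came from most isotypes. Tyr (4 of 7) and His (2 of 3) had the highest shares, Leu and Ser had 6 of 20 each, and Asn had 0 of 10; these isotypes are named after their values were seen. Of the tRNA genes with another tRNA gene within 1000 bp, 50 of 160 (31.2%) had a summit, against 13 of 98 (13.3%) of those that stand alone. Several tRNA genes can share 1 summit, and 22 of the 39 members had more than 1 noncoding gene within 500 bp. Of tRNA genes whose sequence is found once, 13 of 47 (27.7%) had a summit, against 50 of 211 (23.7%) of those with identical copies elsewhere. The splits by neighbours and by copies were chosen after the data were seen.

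Members lay more often upstream of the noncoding start than downstream of it, with lncRNA members near an even split. Upstream were 134 of 223 (60.1%, Wilson 53.5% to 66.3%), with 62.0%, 63.4% and 63.4% in the replicates' own lists. The share was 74.4% at tRNAs (29 of 39), 75.9% at antisense RNAs (22 of 29), 77.8% at snoRNAs (7 of 9) and 51.5% at lncRNAs (68 of 132). The median distance from the start was 148 bp at tRNAs, 228 bp at antisense RNAs and 241 bp at lncRNAs. Differences in position between classes were not tested, since the classes share the same 3 libraries and summits of a library are not replicates.

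**Figure D3:**
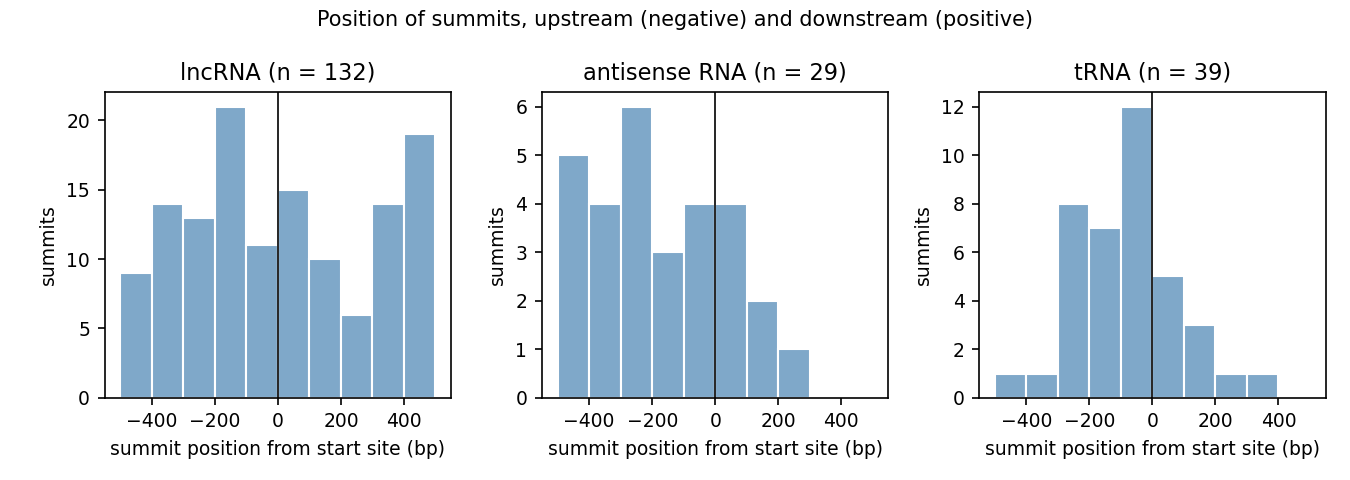
Number of members by position of the summit from the noncoding start site in bins of 100 bp, upstream negative, for lncRNAs, antisense RNAs and tRNAs. Of the 39 tRNA summits 29 lie upstream of the gene, and the median distance from the start over the 39 is 148 bp. The lncRNA summits spread over the whole window of 500 bp to each side.

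Most members were far from coding start sites. The median distance to the nearest one was 2516 bp, and 40 of 223 had one within 1000 bp. Between coding genes lay 142, in introns of coding genes 72, in exons of untranslated regions 8 and in coding sequence 1. Antisense RNA members stood nearer to coding starts (median 1060.0 bp, 13 of 29 within 1000 bp) than lncRNA members (median 3009.5 bp, 15 of 132). Nearest to a coding start among the members were summits at snoRNA:gcl-a (503 bp from gcl), lncRNA:CR44655 (508 bp from mamo) and lncRNA:CR45739 (515 bp from CG12607), while summits at lncRNA:CR45010 (500 bp from FucTC), lncRNA:CR43493 (495 bp from l(1)G0196) and lncRNA:CR45036 (478 bp from CG6163) were left out by a narrow margin. The members closest to their noncoding start were those at lncRNA:CR45726 (0 bp), the pseudogene CR43186 (3 bp) and mir-4962 (5 bp). Just inside the 500 bp limit were summits at lncRNA:CR44867 (496 bp, signal 838), lncRNA:CR44363 (497 bp, 612) and lncRNA:CR45352 (497 bp, 337), and just outside it summits near asRNA:CR45134 (503 bp, 735), lncRNA:CR45542 (507 bp, 619) and lncRNA:CR45949 (510 bp, 281). The signals inside and outside the limit overlap.

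The summit density around noncoding starts was also taken beyond the limit of 500 bp. In sequence over 1000 bp from coding start sites, a gap chosen after the data were seen, IDR summits occurred at 29.3 per Mb. Within 100 bp of a noncoding start the density was 81.9 per Mb, at 100 to 200 bp 90.2, at 400 to 500 bp 69.0, at 500 to 600 bp 49.3 and at 2000 to 5000 bp 38.0. In the own lists of replicates 1, 2 and 3 it was 64.4, 57.5 and 48.3 per Mb at 400 to 500 bp and 47.0, 84.6 and 68.1 at 500 to 600 bp, so from the first bin to the next it was lower in replicate 1 and higher in replicates 2 and 3. The density within 500 bp was 1.93 times that at 1000 to 5000 bp, with 2.12, 1.59 and 2.02 in replicates 1, 2 and 3 (1.91 ± 0.281, SD, n = 3). Around tRNA starts it was 309.6 per Mb within 100 bp, 217 at 100 to 200 bp, 262 at 200 to 300 bp and 37.2 at 400 to 500 bp. These came from 13, 8, 8 and 1 summits, so the bins are thinly filled. In the replicates' own lists the first tRNA bin held 191, 23.8 and 381 summits per Mb, lowest in replicate 2. The bin of 100 to 200 bp held 325, 108 and 515, more than the first bin in each list, unlike in the IDR list. Around lncRNA starts it was 76.7 per Mb within 100 bp and 76.9 at 400 to 500 bp. At long lncRNAs, over 2000 bp, 10 of 147 starts and 7 of 147 3′ ends had an IDR summit within 500 bp. The replicates gave 13, 13 and 10 starts against 7, 6 and 7 ends, so starts were ahead in each library by 3 to 7 genes.

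**Figure D4:**
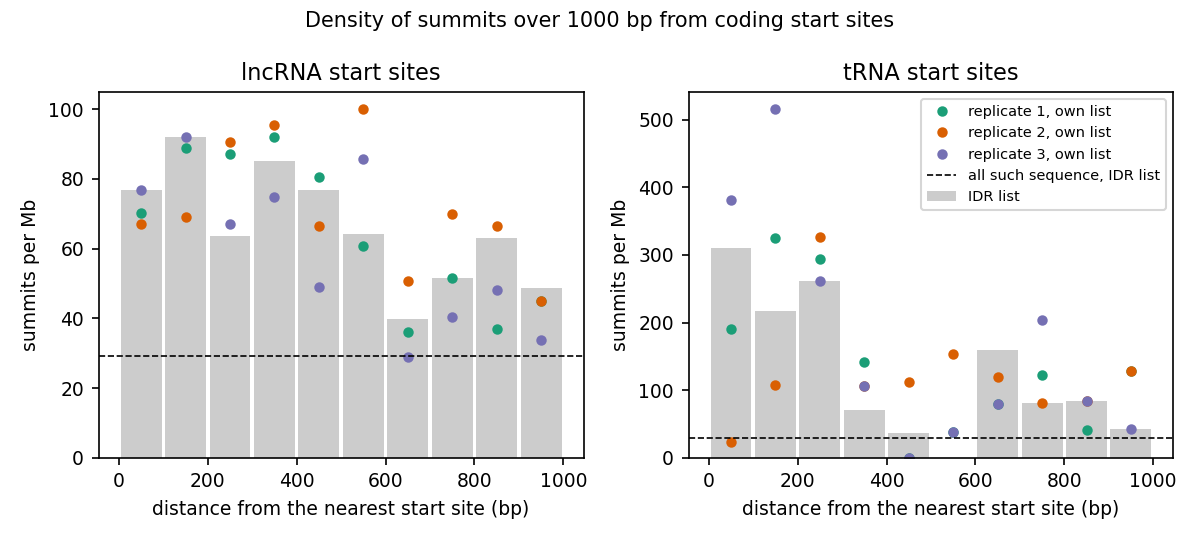
Summits per Mb in bins of 100 bp by distance from the nearest lncRNA (left) or tRNA (right) start site, counted only over 1000 bp from coding start sites, in the IDR list (grey bars) and in each replicate's own list (points). The dashed line is the density over all such sequence, 29.3 per Mb, and the first tRNA bin reaches 309.6 per Mb in the IDR list. In each replicate's own list the tRNA bin of 100 to 200 bp is higher than the first.

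As a group the members differed from other summits in how often replicates held them by less than the spread between libraries. In all 3 replicates were 106 of 223 (47.5%, against 49.7% of all IDR summits), in exactly 2 were 77, in 1 were 35 and in none 5. Replicates 1, 2 and 3 held 85.2%, 62.3% and 79.8% of the members (75.8% ± 12, SD, n = 3) and 83.7%, 62.9% and 81.9% of summits at coding start sites on 1 strand. The difference was -0.408 ± 1.78 percentage points (higher in 1 of 3 libraries, exact permutation test, two-sided, p = 0.75). Against summits over 500 bp from any start site it was -1.15 ± 7.90 points (higher in 2 of 3, exact permutation test, p = 1.00). Median rank percentiles in the full replicate lists, where 100 is the strongest, were 88.7, 87.1 and 88.1 over the members matched there. Matched were 214, 181 and 213 of the 223 members in replicates 1, 2 and 3. Of 836 summits at coding start sites on both strands, 798, 680 and 760 were matched. Unmatched summits have no rank and are left out of these medians. The difference from summits at coding start sites on both strands was -2.63 ± 3.19 points (lower in 3 of 3, exact permutation test, p = 0.25), a gap smaller than its spread. Replicate 2 held the smallest share of members, as it did of the other classes.

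Sequence up to 50 bp from each summit was searched on both strands for 14 words. The word of GATA factors was read as AGATAA with the alternative spelling TGATAA, that of homeodomain factors as TAATTA, and that of GAGA factor, in its shortest form, as GAGAG. Core promoter words were the box of TATA promoters, here spelled TATAAA, and the initiator, spelled TCAGTT with the alternative spelling TCAGTC. The E-boxes were searched as CAGCTG in the first form, as CACGTG in the second form and as CATCTG in the third form. The others were Zelda (spelled CAGGTA here), a dinucleotide repeat spelled CACACA here, the GC box (spelled GGGCGG here), DRE (TATCGATA), Motif 1 (GGTCACAC) and the B box of tRNA promoters (TTCGAATC or TTCGATTC). Words can overlap in the sequence, and each was counted on its own. A match is only a match of letters. At members the GATA word occurred at 50 of 223 summits (22.4%), against 22.2% of all IDR summits. Its share was 18.8% at coding starts on 1 strand and 25.9% over 500 bp from any start. It occurred at 10.5% of 3201 noncoding start sites without a summit. Those windows were centred on the start and not on a summit, with 41.4% GC against 36.7% at members. In the replicates' own lists the GATA word occurred at 18.4%, 23.7% and 24.1% of members. That was above coding starts on 1 strand by 3.99 ± 3.42 percentage points (higher in 3 of 3, exact permutation test, p = 0.25). The homeodomain word occurred at 26 (11.7%, against 9.72% of all IDR summits), the TATA box at 43 (19.3%, against 19.4%), GAGA factor at 24 (10.8%, against 11.8%) and the initiator at 29 (13.0%, against 11%). Motif 1 occurred at 0 of 223 members (against 0.430% of all IDR summits) and DRE at 1 (0.448%, against 0.597%). The B box occurred at 6 (2.69%, against 1.22%), of which 5 were at lncRNAs and 1 at an antisense RNA, and at 0 of the 39 members at tRNA genes. Of those 39 summits 29 lay upstream of the gene and 4 inside it, so most windows leave out all or part of the gene. The 0 is therefore not read as a lack of the word at tRNA genes. At tRNA start sites without a summit the B box occurred at 2 of 179 (1.12%). Windows there reach 50 bp past the start and hold only part of the gene, so this count is not read as a baseline either. Of the 6 remaining words the most frequent was the CA repeat, at 19 (8.52%, against 7.55%).

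Within the members the GATA word was unevenly spread. It occurred at 10 of 29 antisense RNA summits (34.5%; 17.9%, 31.2% and 41.9% in the replicates' own lists), at 13 of 39 tRNA summits (33.3%; 35.0%, 39.1% and 24.6%) and at 20 of 132 lncRNA summits (15.2%; 13.2%, 19.4% and 18.9%). The tRNA share was above the lncRNA share in each library, and the antisense share too, with the lowest antisense value of 17.9% inside the lncRNA range. At tRNA start sites without a summit the word occurred at 21 of 179 (11.7%). The window there is centred on the start and holds part of the tRNA gene itself, with 48.7% GC against 35.7% at tRNA summits. At tRNA summits the homeodomain word ranged from 5.26% to 17.4% between libraries and the initiator from 4.35% to 20%. These classes and words were compared after values had been seen, so no test is given.

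**Figure D5:**
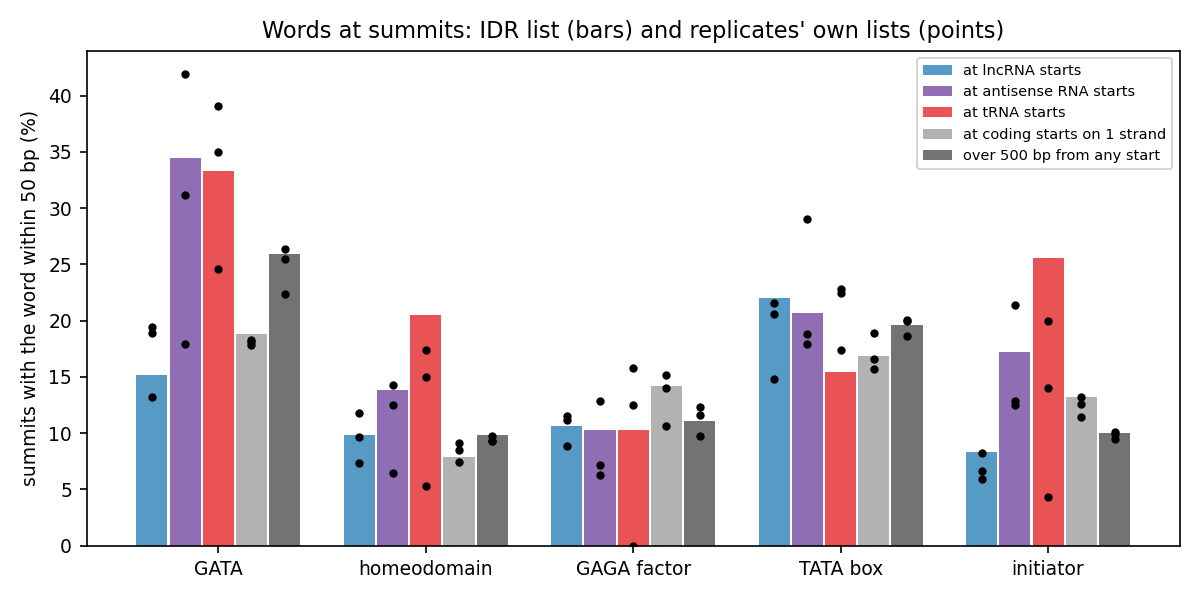
Percent of summits with each of 5 words within 50 bp, at lncRNA, antisense RNA and tRNA starts and in the 2 largest other groups of summits, in the IDR list (bars) and in each replicate's own list (points). The GATA word stands at 33.3% for tRNA summits and 15.2% for lncRNA summits, and the points of the small classes spread widely.

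The GC share of member summits lay between those of the other summit groups. GC made up 36.7% of the bases within 50 bp, against 36.5% over all IDR summits, 38.8% at coding starts on 1 strand, 32.7% at coding starts on both strands, 35.9% over 500 bp from any start and 41.4% at noncoding start sites without a summit. In the replicates' own lists the members had 37.6%, 35.7% and 37.5%, with differences from coding starts on 1 strand of -1.45, -1.03 and -2.48 points (lower in 3 of 3, exact permutation test, two-sided, p = 0.25). That difference is -1.65 ± 0.745 points, larger than its spread. Members were higher by 4.25 ± 0.402 points than coding starts on both strands and by 0.833 ± 0.523 points than summits over 500 bp from any start (each higher in 3 of 3, exact permutation test, two-sided, p = 0.25). Over the 6 comparisons of replicates, 11 of gene shares and 45 of sequence, the lowest Benjamini-Hochberg adjusted p of these exact permutation tests was 1.000, 0.306 and 0.402, and no test of 3 libraries could reach 0.05.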

How the data were processed

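Peaks of 3 ChIP-seq libraries were called by the authors per library and on the pooled libraries, and the IDR list (irreproducible discovery rate, how alike peaks rank in replicates) was made from those lists, per the text notes deposited beside them. Sonication gave fragments of 200 to 800 bp, per the labels. The assembly is dm6, per the labels; no source used here gives the caller or aligner, and the control was not analysed here. The deposited signal value is a score of unknown scale and was used to rank peaks within a list. The deposited −log10 q value stands at a ceiling and was not used. The 7201 IDR peaks are all in the pooled list; replicate and pooled lists hold 30000 each.

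Summits (peak start plus deposited offset, 1-based) were set against start sites of Ensembl release 115 on arms 2L, 2R, 3L, 3R, 4 and X. Mature miRNA products were counted with their miRNA gene. Replicate lists were taken to 7201 peaks by signal and summits matched within 100 bp. Tests are exact sign flips over 3 libraries, two-sided. The labels call the libraries biological replicates. The members and lists were chosen with earlier results of these data known. Genes were named for the 20 strongest members, up to 3 per class and the 10 with most members. The members of the lists by function and those at the distance limit were named too. Neither lncRNA:Msa nor mir-263a was found by that name in the annotation used. A listed gene annotated under another name may be left out of the counts over the lists and their hosts. Alternatives were distances of 250 and 1000 bp, the peaks above the median signal, other match and window sizes, pseudogenes left out, each replicate's list, and with each replicate left out, the IDR peaks that the others both held. Methods were tested on simulated data. Software was scipy 1.17.1, pandas 2.3.3, numpy 2.4.6, matplotlib 3.10.9 and Python 3.11.15.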

Additional observations from a re-analysis of the deposited data

How the results depend on the processing

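No paired analysis was possible because the study has 1 group. A replicate left out had still contributed to the pooled call, so leaving it out filters the IDR peaks more strictly, and depth is unknown. Ranges in this paragraph named as left out are the lowest and highest value over the 3 such sets. The number of members was 105 in the peaks above the median signal and 115 to 157 with a replicate left out. The mean share found in a replicate was 91.7% in the peaks above the median signal and 90.9% with full lists. Its difference from coding starts on 1 strand turned positive in the peaks above the median signal (0.532), without pseudogenes (0.216) and with a match of 50 bp (0.334), and ran from -1.34 to 0.439 left out. The difference from summits away from starts ran from -3.86 to 3.38 left out. The rank percentile, taken over matched summits, was 94.4 in the peaks above the median signal. Its difference from coding starts on 1 strand turned positive at 250 bp (0.496), 1000 bp (0.459), in the peaks above the median signal (0.351), without pseudogenes (0.172) and with a match of 250 bp (0.0644), and ran from -0.403 to 0.133 left out. Against summits away from starts it ran from -0.123 to 1.26 left out. These differences are within the spread between replicates, and no direction is drawn from them.

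Noncoding genes with a summit were 4.52% at 250 bp, 10.7% at 1000 bp, 3.56% in the peaks above the median signal, 6.5% in the list of replicate 2 and 4.07% to 5.77% left out. tRNA genes gave 4.65% in the peaks above the median signal, 12% in the list of replicate 2 and 6.20% to 16.3% left out. lncRNA genes gave 3.92% at 250 bp, 10.5% at 1000 bp, 3.98% in the peaks above the median signal, 7.96% in the list of replicate 2 and 4.99% to 5.64% left out. miRNA hosts gave 20.6% in the list of replicate 2 and 20.6% to 26.5% left out. Members upstream were 64.3% at 250 bp, 58.0% at 1000 bp, 64.8% in the peaks above the median signal, 62.0%, 63.4% and 63.4% in the lists of replicates 1, 2 and 3, and 62.6% to 63.7% left out. GC was 38.4% at 250 bp, 34.9% in the peaks above the median signal, 38.2% in windows of 100 bp to each side and 33.9% to 36.0% left out, and its difference from summits away from starts ran from -0.683 to 0.434 left out. The density ratio was 1.59 in the list of replicate 2. The cause was not tested for any of these. In all, 126 values of these results were counted as unchanged, 42 as moved and 14 as reversed. A difference between groups was counted as unchanged if it kept its sign, whatever its size. Counts were so if they changed by up to 1.5 times, and other values if they moved by less than the spread between replicates. By the same rules, 180 of the values for single words and classes were unchanged and 112 moved.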
